A study of Mus musculus with 12 samples.

Results

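The CXC chemokine genes Cxcl1, Cxcl2, Cxcl3, Cxcl10, Cxcl13 and Cxcl16, 6 of the 28987 genes in an RNA-seq table of sorted mouse neutrophils, were described in 12 libraries. All 6 were found in the table by symbol, and all 6 passed the filter that kept 13456 genes for testing, a level of 1 TPM or more in at least 3 libraries (TPM is the read level of a gene scaled to its length and to the library). They were chosen by symbol and selected on their known TPM levels in peritoneal and marrow libraries of this table, so the difference between bone marrow (BM) and peritoneum (PT) is given for them as a description, without a test. The mice were of the FVB strain and were either wild type (WT) or carried MRP8-Bcl2, a transgene in which regulatory regions of human MRP8, active in myeloid cells, drive human Bcl-2. The 4 groups combine site and genotype (WT or Bcl2, for MRP8-Bcl2, at BM or PT). All mice had received 2 mL of thioglycollate into the peritoneum, and cells of both sites were taken 6 h later per the labels, whereas the study's methods give other times, one earlier and one later. No group came from uninjected mice. The study sorted CD11b+F4/80-GR1++ cells, although the source field of the labels reads macrophages, and ages were not given. Each group held 3 libraries, numbered 1 to 12 over the series. Nothing in the columns says which marrow and peritoneal libraries came from the same mouse, and p-values therefore measure only the spread between libraries.

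CXC chemokines are small secreted proteins that bind heparan sulfate on cell surfaces and draw leukocytes through G protein-coupled receptors. Cxcl1, Cxcl2 and Cxcl3 are ligands of Cxcr2, the receptor by which neutrophils enter inflamed tissue, and neutrophils at such a site can themselves make them. Cxcl10 is an interferon-inducible ligand of Cxcr3, Cxcl13 draws B cells through Cxcr5, and Cxcl16 is a membrane-bound ligand of Cxcr6 that the protease Adam10 can shed.

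One library went against its label. The row of mouse Bcl2 stood at 166, 224 and 333 TPM in the BM Bcl2 libraries and at 82.8 and 58.6 TPM in libraries 7 and 8 of PT Bcl2, but at 0.695 TPM in library 9, which is labelled PT Bcl2, against 0.219 to 2.37 TPM in the 6 WT libraries. Bcl2 values were read from the mouse gene, whereas the transgene is human. Neutrophil markers, 8 in all, summed to between 76949 and 350834 TPM in BM libraries and between 15089 and 70033 TPM in PT libraries. S100a8 and S100a9 made up most of each sum, and the 8 markers did not move alike. Csf3r lay higher in PT without overlap in both genotypes, with 183 to 1038 TPM in BM WT and 1839 to 2478 TPM in PT WT. Itgam did so in WT only. Mmp8 lay lower in PT without overlap in MRP8-Bcl2, and Cxcr2 and Retnlg overlapped in both genotypes. S100a8 and S100a9 were called lower in PT in both genotypes and Ly6g in WT, with log2 differences of -3.62, -3.73 and -7.25 in WT, and Csf3r was called higher in PT in MRP8-Bcl2 (3.38). In MRP8-Bcl2 the calls of S100a8 and S100a9 (-2.37 and -2.24) were lost without the filter, after median centring (-0.78 and -0.65) and after quantile normalization (-0.60 and -1.24), and in WT after quantile normalization (-1.65 and -2.88), as was that of S100a8 without the filter. One read on a transcript of 1000 nt was worth an estimated 0.341 to 1.62 TPM, so the lowest values below rest on few reads. In bulk RNA, fewer cells of a type and less RNA per cell cannot be told apart.

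Cxcl2 was the most abundant of the 6 transcripts in 11 of the 12 libraries, and its level was higher in every PT library than in any BM library. In BM WT, Cxcl2 stood at 12.8, 21.0 and 15.2 TPM, and in PT WT at 563, 276 and 2058 TPM. The MRP8-Bcl2 libraries held 35.0, 21.8 and 10.4 TPM of Cxcl2 in BM and 2068, 566 and 232 TPM in PT. The lowest PT library thus exceeded the highest BM library in both genotypes. Group means of Cxcl2 were 16.3 ± 4.23 TPM (SD, n = 3) in BM WT, 22.4 ± 12.3 TPM in BM Bcl2, 955 ± 978 TPM in PT Bcl2 and 966 ± 957 TPM in PT WT, and within a site the genotypes overlapped. On the log2(TPM + 1) scale, the difference of PT from BM was 5.33 (SE 0.81) in WT and 4.95 (SE 0.81) in MRP8-Bcl2. Ranked among all genes of a library, Cxcl2 was between the 33rd and the 214th highest in PT and between 2385th and 7219th in BM.

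Cxcl1, the nearest to Cxcl2 in the genome among the 6, was listed at 0 in all 3 BM WT libraries and in 2 of the 3 BM Bcl2 libraries, with 2.50 TPM in the remaining one, library 2. In PT it reached 5.12, 2.90 and 38.6 TPM in WT and 21.8, 14.0 and 13.0 TPM in MRP8-Bcl2. Every PT library again lay above every BM library, although the lowest PT value was only slightly above the single marrow library in which Cxcl1 was detected. Its mean was 15.5 TPM in PT WT, most of it from library 12, and 16.3 ± 4.83 TPM (SD, n = 3) in PT Bcl2. No fold is given for Cxcl1 in WT, where marrow was listed at 0. In MRP8-Bcl2 the log2 difference of PT from BM was 3.47 (SE 0.87).

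Cxcl3 followed with 16.3, 15.8 and 204 TPM in PT WT against 0.85, 0 and 0 TPM in BM WT. In MRP8-Bcl2 its levels were 52.8, 40.9 and 6.69 TPM in PT and 7.94, 1.16 and 0 TPM in BM. The WT groups did not overlap, whereas in MRP8-Bcl2 library 9 of PT (6.69 TPM) lay below library 1 of BM (7.94 TPM). The log2 difference of PT from BM was 4.99 (SE 1.10) in WT and 3.27 (SE 1.10) in MRP8-Bcl2, and 4.15 in MRP8-Bcl2 without library 9.

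These 3 genes lie on mouse chromosome 5 (GRCm38, GENCODE M21), all on the plus strand: Cxcl3 at chr5:90786103-90789600, Cxcl1 at chr5:90891241-90893115 and Cxcl2 at chr5:90903871-90905938, within 119.836 kb. The gap from Cxcl1 to Cxcl2 is 10.756 kb and that from Cxcl3 to Cxcl1 is 101.641 kb, and genes within these gaps were not examined. Cxcl10 (chr5:92346638-92348889, minus strand) and Cxcl13 (chr5:95956951-95961068, plus strand) are farther along the same chromosome, and Cxcl16 is on chromosome 11 (chr11:70453983-70459984, minus strand).

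The sequence before the start site is shown for the 5 genes with a RefSeq promoter window. A link between these letters and the RNA levels was not tested. Each line runs 5′ to 3′ on the strand of the gene, from 170 to 31 bases before the RefSeq start (GRCm38.p6). Capitals mark matches to GGGNNNTTCC on either strand, the form of a κB site, to which NF-κB binds; a run of 11 capitals is a match on each strand shifted by 1 base. Motifs were chosen after the sequences had been seen.
Cxcl1 (chr5:90891075-90891214, plus strand): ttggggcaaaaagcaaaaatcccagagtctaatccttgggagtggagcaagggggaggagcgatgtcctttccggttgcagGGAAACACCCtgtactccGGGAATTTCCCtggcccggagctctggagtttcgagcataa
Cxcl2 (chr5:90903729-90903868, plus strand): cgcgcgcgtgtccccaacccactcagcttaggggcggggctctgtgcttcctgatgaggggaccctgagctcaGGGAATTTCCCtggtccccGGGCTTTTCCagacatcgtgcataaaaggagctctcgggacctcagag
Cxcl3 (chr5:90785931-90786070, plus strand): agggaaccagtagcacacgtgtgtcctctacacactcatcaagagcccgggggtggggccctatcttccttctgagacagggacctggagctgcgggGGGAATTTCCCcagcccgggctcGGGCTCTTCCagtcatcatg
Cxcl10 (chr5:92348920-92349059, minus strand): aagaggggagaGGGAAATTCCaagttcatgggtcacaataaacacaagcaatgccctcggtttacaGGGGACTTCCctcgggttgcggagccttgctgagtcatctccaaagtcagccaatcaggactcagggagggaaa
Cxcl13 (chr5:95956769-95956908, plus strand): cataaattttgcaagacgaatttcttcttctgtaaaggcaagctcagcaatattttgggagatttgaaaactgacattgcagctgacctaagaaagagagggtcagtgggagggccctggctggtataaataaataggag

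The letters GGGAATTTCC stood in the windows of all 3 clustered genes, 71 bases before the start in Cxcl1, 97 bases in Cxcl2 and 73 bases in Cxcl3. Of all 32851 RefSeq promoter windows of 300 bases, 29 (0.0883%) held these letters on either strand. The letters were copied from the Cxcl1 window, so the match there was given in advance, and the share is a description, not a test. A match to GGGNNNTTCC, which also takes in that sequence, was present in 5.56% of all windows, which run from 250 bases before to 50 after the start, and in 4 of the 5 members' windows, with no match in that of Cxcl13. The Cxcl10 window also held GAAANNGAAA, the core of an interferon-stimulated response element (3.44% of all windows), 213 bases before the start, and TGANTCA, the AP-1 motif (7.81%), 74 bases before it. TTGCNNAA, the form of a C/EBP site (10.8%), was matched in the Cxcl13 window only, 164 bases before the start. Both strands were searched for each motif, and a match is a description of letters, not of binding.

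Cxcl10 was the member whose levels differed most between genotypes in PT. Its levels were 57.1, 103 and 37.6 TPM in PT Bcl2, above the 9.32, 20.7 and 3.69 TPM of PT WT without overlap. In BM the values were 2.28, 6.66 and 0 TPM in WT and 0, 12.5 and 15.5 TPM in MRP8-Bcl2, so that BM and PT overlapped in WT but not in MRP8-Bcl2. The log2 difference of PT from BM was 1.79 (SE 1.06) in WT and 3.35 (SE 1.06) in MRP8-Bcl2.

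Cxcl13 was second to Cxcl2 in 4 of the 6 PT libraries. It stood at 0.696, 0 and 2.10 TPM in BM WT and at 2.18, 4.72 and 0 TPM in BM Bcl2, and rested there on an estimated 0 to 6 reads per library. PT Bcl2 held 204, 79.3 and 78.8 TPM of Cxcl13, and PT WT 179, 219 and 3.15 TPM. Library 12 of PT WT therefore had a Cxcl13 level in the range of the marrow libraries, from an estimated 9 reads, whereas the other PT WT libraries had 630 and 572. The log2 difference of PT from BM was 4.98 (SE 1.22) in WT, 6.84 without library 12, and 5.38 (SE 1.22) in MRP8-Bcl2.

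Cxcl16 was the lowest of the 6 in all 6 PT libraries. Its levels were 0, 0 and 1.06 TPM in BM WT, 1.51, 1.91 and 1.18 TPM in PT WT, 0.272, 20.5 and 0 TPM in BM Bcl2 and 0, 5.06 and 1.02 TPM in PT Bcl2. The WT groups did not overlap, with 1.06 and 1.18 TPM in the nearest libraries. In MRP8-Bcl2 the highest level of all 12 libraries was in marrow, in library 2. The log2 difference of PT from BM was 0.98 (SE 0.99) in WT and -0.39 (SE 0.99) in MRP8-Bcl2, and the latter was 1.03 without library 2.

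**Figure D1:**
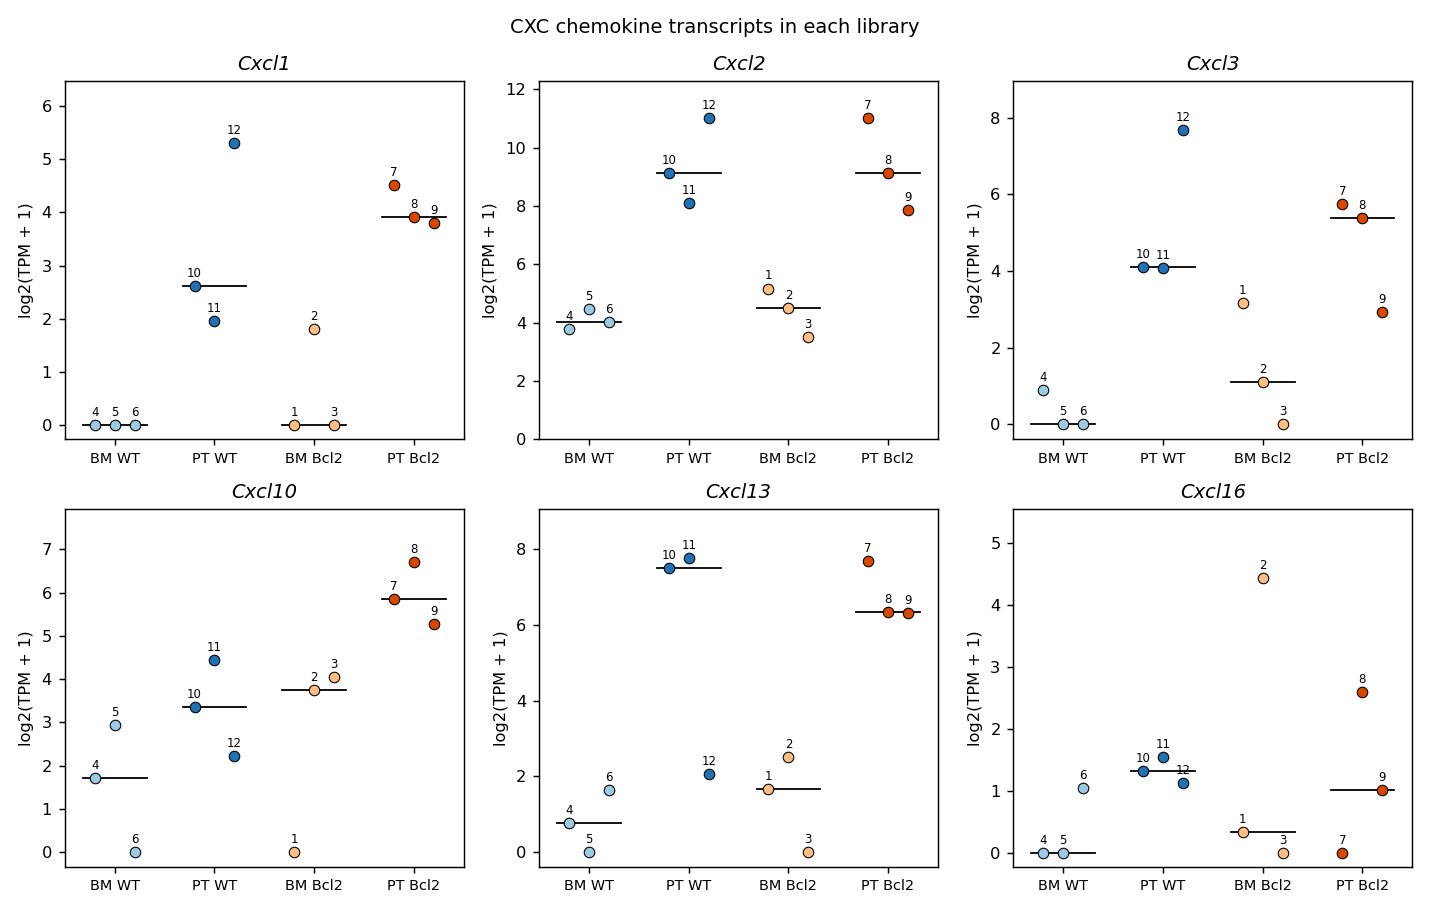
Level of each of the 6 CXC chemokine transcripts, as log2(TPM + 1), in the 12 libraries by group, 3 per group, with the library number above each point and a line at the group median. For Cxcl1 and Cxcl2 all 6 PT libraries lie above all 6 BM libraries, and for Cxcl13 library 12 of PT WT lies with the marrow libraries.

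Between sites, the PT libraries lay above the BM libraries without overlap for 5 of the 6 members in WT (Cxcl10 excepted), where 14.9% of the 13456 tested genes did so, and for 4 of 6 in MRP8-Bcl2 (Cxcl3 and Cxcl16 excepted), where 5.18% did. For Cxcl1 and Cxcl2, all 6 PT libraries lay above all 6 BM libraries, a pattern of 2.58% of the tested genes. Nothing is read from these counts, since the members were chosen with these levels known. The whole table was not centred between sites: the median log2 difference of PT from BM over all tested genes was 0.22 in WT and -1.02 in MRP8-Bcl2. After each library was centred on its median, the Cxcl2 difference was 5.12 in WT and 6.54 in MRP8-Bcl2, and that of Cxcl16 in MRP8-Bcl2 changed sign to 1.20. Without library 9, the differences in MRP8-Bcl2 were 3.61 for Cxcl1, 5.69 for Cxcl2, 3.68 for Cxcl10 and 5.61 for Cxcl13.

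**Figure D2:**
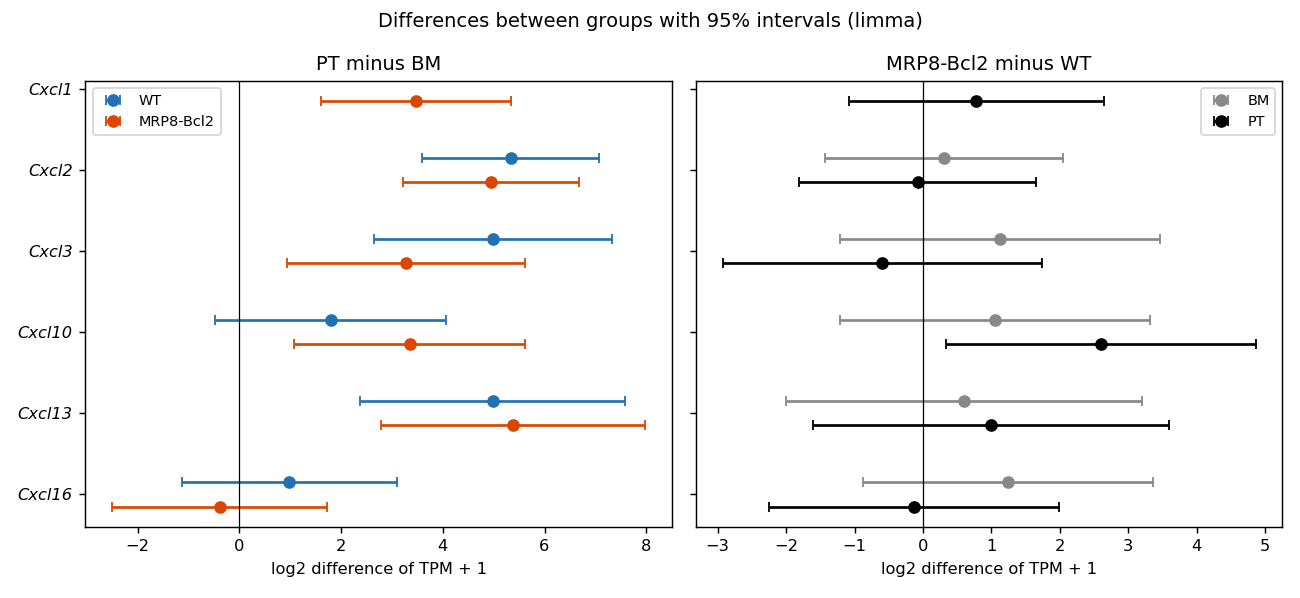
Log2 differences of TPM + 1 between groups for the 6 CXC chemokines, as points with 95% intervals from the limma fit, PT minus BM in each genotype on the left and MRP8-Bcl2 minus WT at each site on the right, with no point for Cxcl1 where BM WT was listed at 0. The intervals on the left show the spread between libraries only. They are no test, since the members were chosen with their BM and PT levels known. On the right, the interval of Cxcl10 in PT, 0.33 to 4.87, is the only one that leaves out 0.

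The genotype comparison asks whether the transgene, used to keep neutrophils from dying, went with other chemokine levels at the same site. None of the 6 members was called in PT (limma, Benjamini-Hochberg adjusted p under 0.05 and at least 2-fold), where 0.0297% of tested genes were called. Cxcl10 had the largest difference, 2.60 higher on the log2 scale in PT Bcl2 than in PT WT (95% interval 0.33 to 4.87, limma adjusted p = 0.341), and 0.587% of tested genes lay higher in PT Bcl2 without overlap. Without library 9, whose Bcl2 row was at the WT level, the Cxcl10 difference was 2.94 (limma adjusted p = 0.292), and without library 12 it was 2.04 (limma adjusted p = 0.75). The other differences in PT were 0.78 for Cxcl1 (95% interval -1.08 to 2.64), -0.08 for Cxcl2 (-1.81 to 1.66), -0.59 for Cxcl3 (-2.93 to 1.74), 1.00 for Cxcl13 (-1.60 to 3.60) and -0.13 for Cxcl16 (-2.25 to 1.99). Their limma adjusted p-values were between 0.713 and 0.984. Without library 9 the differences were 0.92 for Cxcl1, 0.66 for Cxcl2, 0.28 for Cxcl3, 1.23 for Cxcl13 and -0.03 for Cxcl16, so that those of Cxcl2 and Cxcl3 changed sign. The intervals over all 12 libraries leave room for a change of at least 2-fold in either direction for each of the 5. Over all tested genes the median difference in PT was -0.67, and after centring each library on its median the Cxcl10 difference was 3.67.

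In BM none of the 6 members was called between the genotypes, against 0.0223% of tested genes. Cxcl1, at 0 throughout BM WT, is left without a difference. The largest difference of the other members was that of Cxcl16, 1.24 (95% interval -0.87 to 3.36, limma adjusted p = 0.751), and it was -0.17 without library 2. Cxcl2 differed by 0.31 (95% interval -1.43 to 2.04, limma adjusted p = 0.933).

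Whether the difference between sites itself depended on genotype was tested as an interaction, called at the adjusted p alone in 0.0149% of tested genes and in no member. Its estimate was 1.55 for Cxcl10 (95% interval -1.65 to 4.76, limma adjusted p = 0.581), -1.72 for Cxcl3 (-5.02 to 1.58, limma adjusted p = 0.55) and -0.38 for Cxcl2 (-2.84 to 2.07, limma adjusted p = 0.871). The change of Cxcl10 with site was thus not shown to differ between MRP8-Bcl2 and WT.

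Summed over the group, the 6 transcripts came to 16.6 to 63.1 TPM in BM libraries and 369 to 2404 TPM in PT libraries. In PT, Cxcl2 made up between 51.5 and 89.2% of that sum, and in BM between 34.5 and 82.8%. The ratio of Cxcl2 to Cxcl1 was 17.8 to 110 in PT, and that of Cxcl2 to Cxcl3 was 10.1 to 39.1. Cxcl13 took the next share in library 11 of PT WT, 40.8%, and 0.14% in library 12. Cxcl10 was the largest single share in 1 library only, library 3 of BM Bcl2, with 60.0% of a sum of 25.9 TPM.

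**Figure D3:**
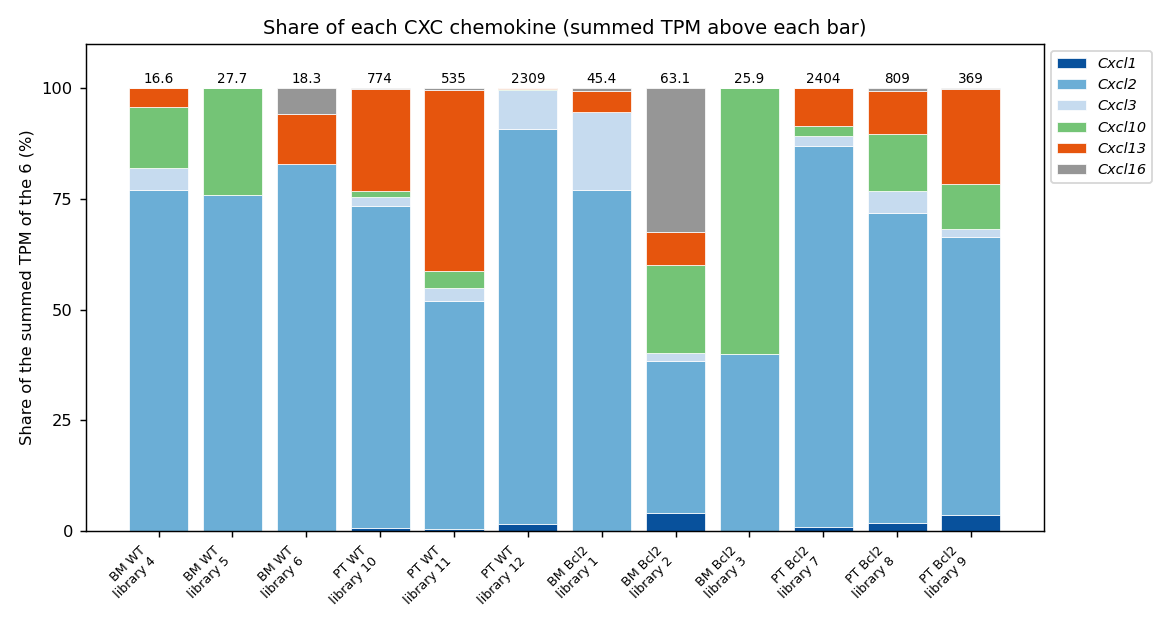
Share of each of the 6 CXC chemokines in their summed TPM, in percent, for each of the 12 libraries, with the sum in TPM above the bar. Cxcl2 fills most of each PT bar, between 51.5 and 89.2%, and Cxcl13 is visible in 5 of the 6 PT libraries.

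The PT libraries of one genotype were not alike. In library 12 of PT WT, Cxcl1, Cxcl2 and Cxcl3 were at their highest and Cxcl10, Cxcl13 and Cxcl16 at their lowest of the group. Library 7 held the highest Cxcl1, Cxcl2, Cxcl3 and Cxcl13 levels of PT Bcl2. As deviations from the group means over the 12 libraries, Cxcl2 and Cxcl3 moved together (Pearson r = 0.85), as did Cxcl1 and Cxcl2 (r = 0.663). Over the same libraries, Cxcl13 did not follow them (r = -0.57 with Cxcl1 and -0.322 with Cxcl2). The order of Cxcl13 was the reverse of that of Cxcl1 and Cxcl2 in PT WT, where library 12 held 3.15 TPM of Cxcl13. In PT Bcl2 the order was the same for Cxcl1, Cxcl2 and Cxcl13. No r was computed without library 12. These correlations describe 12 libraries that share depth and composition within each library.

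Markers of other cells stood beside these levels. The sort was set to leave out F4/80+ cells, and 12 macrophage markers summed to 90.3 to 101 TPM in PT WT, 19.1 to 148 TPM in PT Bcl2, 15.2 to 120 TPM in BM WT and 18.5 to 134 TPM in BM Bcl2. Adgre1, the gene of F4/80, lay higher in PT WT (11.7 to 14.7 TPM) than in BM WT (0 to 6.94 TPM) without overlap. Csf1r and Vsig4 did so too, as did 14.9% of tested genes, and the other tested macrophage markers overlapped. In MRP8-Bcl2 all tested macrophage markers overlapped between sites. Adgre1 and Mrc1 lay lower in PT Bcl2 than in PT WT without overlap, and the others overlapped. Library 8 held 79.3 TPM of Cxcl13 with a macrophage sum of 19.1 TPM, of which Csf1r gave 15.7 TPM, and C1qa, C1qb, Timd4, Gata6 and Cd5l were listed at 0 there. Library 7, with the highest macrophage sum of the 12, 148 TPM, held 204 TPM of Cxcl13, the highest of PT Bcl2. Library 9 had a macrophage sum of 76.9 TPM and 78.8 TPM of Cxcl13. Libraries 10, 11 and 12 of PT WT had macrophage sums of 96.7, 90.3 and 101 TPM with Cxcl13 at 179, 219 and 3.15 TPM. Macrophage sums of 134 TPM in library 2 and 120 TPM in library 4 went with 4.72 and 0.696 TPM of Cxcl13 in marrow. Cxcl16 was at 20.5 TPM in library 2 but listed at 0 in libraries 4 and 7. Library 12, highest in Cxcl1 and Cxcl3, was also highest in mast cell markers: its 5 markers, led by Cpa3 at 481 TPM, summed to 636 TPM. The other PT libraries had sums of 1.43 to 57.8 TPM, of which libraries 10 and 11 of PT WT had 57.8 and 25.8 TPM. The BM libraries had 4.03 to 16.4 TPM. B cell markers, 6 in all, summed to 53.3 to 251 TPM in PT and 20.3 to 102 TPM in BM. The 12 mesothelial and stromal markers reached at most 19.7 TPM in any library, with Msln, Upk3b, Upk1b and Col3a1 at 0 in all 12. Of the marker genes of other cells, Cma1 of mast cells alone was called between sites. Over all tested genes, 2.81% were called in WT and 21.4% in MRP8-Bcl2. Cma1 was higher in PT in WT (log2 difference 4.19, SE 0.91, limma adjusted p = 0.0246). The call was lost without library 4, 5, 6, 10 or 12, with the pseudocount of 0.1 and without the filter. Cpa3, Mcpt4 and Tpsb2, like Cma1, lay higher in PT WT without overlap, as did 14.9% of tested genes, and Ms4a2 overlapped. In MRP8-Bcl2 only Tpsb2 of the 5 did so, where 5.18% of tested genes did. Median centring put Cma1 past the threshold in MRP8-Bcl2 as well (3.41). Eosinophil markers, 5 in all, summed to 22.3 to 34.9 TPM in PT WT and 5.84 to 24.7 TPM in PT Bcl2 against 2.06 to 7.87 TPM in BM WT and 1.63 to 9.63 TPM in BM Bcl2, with Siglecf higher in PT without overlap in both genotypes and Epx at 0 in all 12 libraries. T cell markers, 6 in all, summed to 22.6 to 215 TPM in PT and 30.9 to 85.5 TPM in BM, with Trac and Thy1 at 0 in all 12 libraries. The highest sum, in library 7, came from Cd3d at 174 TPM and Cd2 at 40.5 TPM, with Cd3e and Cd3g at 0 there. Apart from these values, the part of other cells in the chemokine levels was not tested.

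**Figure D4:**
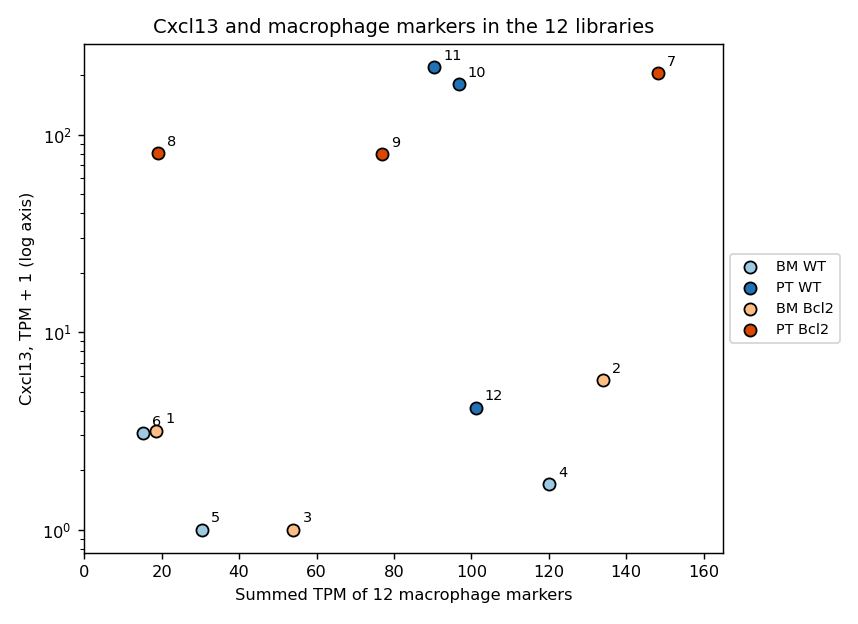
Cxcl13 level (TPM + 1, log axis) against the summed TPM of 12 macrophage markers in the 12 libraries, coloured by group and numbered. In PT, Cxcl13 was at 79.3 TPM in library 8 with a macrophage sum of 19.1 TPM, at 204 TPM in library 7 with 148 TPM and at 3.15 TPM in library 12 with 101 TPM; the marrow libraries span 15.2 to 134 TPM on the horizontal axis, all below 5 TPM of Cxcl13.

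Genes whose log2(TPM + 1) was most like that of each member over the 12 libraries were ranked by Pearson r, which the difference between sites can set, so that r after removal of group means is given as well. The latter comes from the same 12 libraries as the ranking and is not independent of it. For Cxcl2 they were Cass4, an adaptor protein (r = 0.983, within groups 0.862), Marcksl1 (0.981, 0.9) and Snap23, a membrane fusion protein (0.981, 0.865). Cxcl1 was most like Marcksl1 (0.953, 0.795), Tnfaip3, a feedback inhibitor of NF-κB (0.944, 0.819), and Vax2os (0.93, 0.859). Cxcl3 was most like Cxcl2 itself (0.945, 0.85), ahead of Gm5380 and Gm14047. Cxcl10 was most like St7l (0.921, 0.855), Stat2, a transducer of interferon signals (0.898, 0.848), and Gbp7, a guanylate-binding protein (0.888, 0.785). Cxcl13 was most like Zfand2a (0.978, 0.931), Pik3r5, a regulatory subunit of phosphoinositide 3-kinase (0.966, 0.894), and Bhlhe40, a transcription factor (0.95, 0.789). Cxcl16 was most like Tm4sf19 (0.926, 0.94), followed by Gm8839 and Gm13317, but its level was 20.5 TPM in library 2 and at most 5.06 TPM elsewhere.

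Of 9 other CXC ligands, 6 passed the filter, and all of these but Pf4 were below Cxcl2 in every library. In library 2 of BM Bcl2, Pf4 stood level with Cxcl2, at 21.9 and 21.8 TPM. Cxcl5, Cxcl9, Cxcl11 and Cxcl15 did not exceed 5.71 TPM in any library and were not called between sites in either genotype, where 2.81% of tested genes were called in WT and 21.4% in MRP8-Bcl2. Pf4, the platelet factor, was the exception: it was at 521, 17.3 and 9.69 TPM in PT Bcl2 against 0, 21.9 and 0 TPM in BM Bcl2, and was called higher in PT (log2 difference 4.04, SE 1.35, limma adjusted p = 0.0456), though not without the filter on low values (limma adjusted p = 0.1) nor when any 1 of 10 of the 12 libraries was left out. Median centring put Cxcl5, Cxcl9 and Cxcl11 past the threshold in MRP8-Bcl2, higher in PT, Cxcl9 and Cxcl11 by 2.39 and 3.00 on the log2 scale and Cxcl5 against marrow libraries all listed at 0. In PT WT, Pf4 was at 31.8, 14.5 and 13.5 TPM, and in BM WT it was listed at 0. Ppbp reached 62.2 TPM in library 12 and was at most 7.35 TPM elsewhere, and the 7 platelet and megakaryocyte markers were highest there too, at 86.5 TPM, but summed to 4.91 TPM in library 7, where Pf4 was highest. Cxcl12 and Cxcl14 were at or near 0, and Cxcl17 was listed at 21.8 TPM in 1 BM WT library and at 0 in the other 11.

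Of the 8 receptors, Cxcr2, which binds Cxcl1, Cxcl2 and Cxcl3, was abundant at both sites, at 212 to 1864 TPM in BM and 1290 to 3914 TPM in PT. Cxcr3, the receptor of Cxcl10, was at 0 in 11 libraries and at 0.691 TPM in the other, while Cxcr5 and Cxcr6, the receptors of Cxcl13 and Cxcl16, did not exceed 9.68 and 8.74 TPM. None of the 6 receptors tested was called between sites. After median centring, Cxcr1, Cxcr2, Cxcr4 and Ackr3 were past the threshold in MRP8-Bcl2, higher in PT, with log2 differences of 4.33, 3.50, 2.90 and 1.95, as were Cxcr1 after quantile normalization (3.28) and Cxcr4 without the 100 highest genes (1.80).

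Among 8 regulators of mRNA stability, Zfp36 (tristetraprolin, which speeds decay of Cxcl1 and Cxcl2 mRNA) was higher in PT than in BM in MRP8-Bcl2 (log2 difference 2.33, SE 0.60, limma adjusted p = 0.0155). Hnrnpd and Elavl1 were lower, although median centring ended both of the latter calls. In WT none of the 8 was called, and Zfp36 differed by 2.26 (limma adjusted p = 0.0582). Of 8 proteases that shed or trim CXC ligands, Adam10 was not called (log2 difference -0.51 in WT and -1.05 in MRP8-Bcl2), while Elane and Ctsg, granule proteases made early in the marrow, were lower in PT in both genotypes, with log2 differences of -5.98 and -7.91 for Elane in WT and MRP8-Bcl2, and Prtn3 was lower in MRP8-Bcl2. Of 10 interferon-stimulated genes, listed because Cxcl10 belongs with them, Isg15, Rsad2 and Gbp2 were called higher in PT in both genotypes and Ifit1 and Gbp5 in MRP8-Bcl2, and none was called between genotypes in PT. Between sites, 2.81% of tested genes were called in WT (214 higher and 164 lower in PT). In MRP8-Bcl2 21.4% were called, most of them lower in PT (311 higher and 2567 lower). Mx1 went the other way in MRP8-Bcl2 without a call, at 8.06 to 11.3 TPM in BM and 0.65 to 3.81 TPM in PT. Ifit2 and Ifit3 overlapped between sites in both genotypes. In WT, the calls of Isg15 and Gbp2 were lost under 4 and 5 of the 5 other settings, and in MRP8-Bcl2 those of Ifit1 and Gbp5 were lost without the filter. That of Gbp5 was also lost with the pseudocount of 0.1.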

How the data were processed

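The authors sorted neutrophils into Trizol, amplified the RNA, sequenced it in pairs on a HiSeq and deposited log2 values, log2(TPM + 1) from AltAnalyze at default settings, for each gene and library, with no scaling beyond TPM. The genome build and version were not given in the sources used here. The deposited TPM averages per group equalled the means of the library columns and were used for that check only. Deposited fold changes, p-values and marker statistics of the authors were not used. Libraries were grouped by the deposited column names.

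The test was limma 3.58.1 in R 4.3.3 (1 fit of 4 groups, 3 libraries each, eBayes with a trend, 8 residual degrees of freedom) over genes that reached 1 TPM in 3 or more of the 12 libraries. A call needed a 2-fold change and a p below 0.05 after Benjamini-Hochberg adjustment, and for the interaction the adjusted p sufficed. The pseudocount of 1 understates changes of low genes. The fit was tested on simulated data. TPM holds no totals, so depth was estimated from the step between low values of 5021 genes with 1 transcript. At that step 71.1 to 78.7% of low values lay within 0.15 of a whole read, where 30% would by chance for a fixed step. The step was chosen to make this share highest, so the share is no test of it. Positions came from GENCODE M21 and promoter windows from RefSeq, which matched 5 of the 6 members.

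The members, gene lists and tests were chosen with earlier results of these data known. Named were the 6 members, list genes called between sites, every tested other CXC ligand and receptor, and the 3 tested genes most like each member. Alternatives were a pseudocount of 0.1, no filter, median centring, quantile normalization, TPM without the 100 highest genes, and leaving out each library.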

Additional observations from a re-analysis of the deposited data

How the results depend on the processing

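PT against BM in WT gave 378 calls, 252 to 497 under the other settings and 96 to 518 when single libraries were left out (96 without library 10, and a change of over 1.5 times without library 4, 6, 11 or 12 too). PT against BM in MRP8-Bcl2 gave 2878 calls, 1457 after quantile normalization and 1189 to 3074 with single libraries left out (1189 without library 3, 1511 without library 2 and 1881 without library 8), and its split of 311 higher and 2567 lower became 1636 and 467 after median centring and 678 and 779 after quantile normalization. In WT the split of 214 higher and 164 lower became 112 and 197 after centring. MRP8-Bcl2 against WT in BM gave 3 calls, 0 with the pseudocount of 0.1, median centring, quantile normalization or without the 100 highest genes (limma, with 602 to 749 genes at an unadjusted p under 0.05), 5 without the filter, and 0 to 16 with single libraries left out. MRP8-Bcl2 against WT in PT gave 4 calls, 22 with the pseudocount of 0.1, 1 after median centring, 13 without the 100 highest genes and 1 to 17 with single libraries left out. The interaction gave 2 calls, 5 with the pseudocount of 0.1, 1 under each of the other 4 settings and 1 to 5 with single libraries left out. The cause was not tested.

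Of the 12 site differences of the 6 CXC chemokines, 11 kept their sign under all 5 settings and all 12 leave-outs. The exception, Cxcl16 in MRP8-Bcl2 (-0.39), became 1.20 after median centring, 0.52 after quantile normalization and 0.15 without the 100 highest genes, and ranged from -1.18 to 1.03 with single libraries left out. Their sizes moved: with the pseudocount of 0.1, Cxcl3 in WT went from 4.99 to 7.47, Cxcl13 in WT from 4.98 to 6.49, Cxcl16 in WT from 0.98 to 2.83 and Cxcl1 in MRP8-Bcl2 from 3.47 to 5.75, and median centring put those in MRP8-Bcl2 at 5.06 for Cxcl1, 6.54 for Cxcl2, 4.86 for Cxcl3, 4.93 for Cxcl10 and 6.97 for Cxcl13. The 18 genotype and interaction differences of the members were called in 0 of 306 alternatives, and 40 of these had the other sign, in 13 of the 18 differences. The Cxcl10 difference in PT kept its sign throughout, between 2.04 and 3.67. Between sites, 10 of the 24 calls of list genes held without any single library, those of Elane, S100a9 and Ly6g in WT and of Elane, Ctsg, Prtn3, Isg15, Rsad2, Gbp2 and Csf3r in MRP8-Bcl2. No paired analysis was possible because the columns carry no replicate number, so the fit with a replicate block was not run. Depth limits the members in BM most, where a value of about 1 TPM can be a single read.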
